A study of Mus musculus with 2 samples.

Results

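H3K27ac at the promoters of 42 interferon-stimulated genes was examined in mouse macrophages that had received no stimulus. The genes were picked by name, from families that interferon is known to induce, and not by a rule on values measured here. The list was drawn up with earlier results of these data known. The genes are 42 of the 21938 protein-coding genes considered. The promoter of a gene was taken as marked where a peak of both replicates touched the window from 1 kb before to 1 kb after at least 1 of its annotated transcription starts.

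The cells were unstimulated bone-marrow-derived macrophages of strain C57BL/6J, profiled by chromatin immunoprecipitation and sequencing in 1 group of 2 biological replicates. Both replicates carry the same donor entry in the labels, with separate biosamples, so their spread may leave out differences between animals. Age, sex and developmental stage were not recorded, and no stimulated or interferon-treated group was analysed here. The authors deposited 4 peak lists, namely 29543 peaks for replicate 1, 29345 for replicate 2, 32877 in a replicated list and 32909 in a pooled list, both of the latter called on the joined reads. The promoters of 8 of 8 macrophage marker genes were marked, as was 1 of 16 markers of other cell types. That marker was Bst2, which plasmacytoid dendritic cells share with interferon-treated cells and which is itself in the list of 42.

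Type I interferon binds a receptor made of Ifnar1 and Ifnar2, which activates the kinases Jak1 and Tyk2. The kinases activate transcription factors that bind the interferon-stimulated response element (ISRE) in the promoters of target genes. The products bind foreign RNA, degrade it, alter membranes that viruses must cross, or tag proteins with the ubiquitin-like protein Isg15. H3K27ac is a mark of active promoters and enhancers. Macrophages are known to keep a low tonic interferon signal without infection.

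A core of the ISRE, written GAAANNGAAA and searched on both strands, lay between 300 bp before and 50 bp after the annotated 5′ end of 19 of the 42 genes (45.2%, 95% Wilson interval 31.2 to 60.1, counting error only). The same window held the word in 4.26% of all protein-coding genes. RefSeq promoter sequences on GRCm38.p6 matched 35 of the 42 genes by symbol, and no entry was matched for Usp18, Oas2, Rtp4, Mx1, Parp9, Parp14 and Ifi27. The stretches below run 5′ to 3′ in the direction of transcription and take up to 200 bases before the RefSeq start. They stop short of annotated exons, and ISRE words are in capitals. The first set has 3 genes whose ISRE words lie inside a peak of both replicates.
Isg15, chr4:156200819-156201018, minus strand: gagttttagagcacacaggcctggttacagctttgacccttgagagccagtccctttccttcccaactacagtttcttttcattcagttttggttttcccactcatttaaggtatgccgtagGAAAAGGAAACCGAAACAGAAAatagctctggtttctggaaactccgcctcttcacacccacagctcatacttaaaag
Bst2, chr8:71537473-71537672, minus strand: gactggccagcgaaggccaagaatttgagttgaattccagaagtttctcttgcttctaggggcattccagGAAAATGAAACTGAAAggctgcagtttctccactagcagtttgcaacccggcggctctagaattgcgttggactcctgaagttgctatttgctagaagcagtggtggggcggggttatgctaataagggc
Rsad2, chr12:26456453-26456652, minus strand: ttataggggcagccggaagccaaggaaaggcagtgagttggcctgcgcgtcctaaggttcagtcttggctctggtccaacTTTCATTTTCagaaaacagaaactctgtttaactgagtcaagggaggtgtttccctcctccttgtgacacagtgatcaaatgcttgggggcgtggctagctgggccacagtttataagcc

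In Isg15, 3 overlapping words make a single block, and in Bst2 the block has 2 words. The second set shows paralogs whose ISRE blocks read alike, although their peaks differ in fold or position, as described with their families.
Oas1a, chr5:120907526-120907725, minus strand: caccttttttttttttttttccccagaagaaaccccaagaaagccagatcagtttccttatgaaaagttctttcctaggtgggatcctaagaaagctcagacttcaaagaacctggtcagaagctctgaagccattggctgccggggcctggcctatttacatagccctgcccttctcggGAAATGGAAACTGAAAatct
Oas1g, chr5:120887614-120887813, minus strand: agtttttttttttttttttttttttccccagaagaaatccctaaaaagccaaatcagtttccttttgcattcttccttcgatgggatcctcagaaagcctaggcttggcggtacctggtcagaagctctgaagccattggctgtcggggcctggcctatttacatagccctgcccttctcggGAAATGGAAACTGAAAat
Ifit3, chr19:34583329-34583528, plus strand: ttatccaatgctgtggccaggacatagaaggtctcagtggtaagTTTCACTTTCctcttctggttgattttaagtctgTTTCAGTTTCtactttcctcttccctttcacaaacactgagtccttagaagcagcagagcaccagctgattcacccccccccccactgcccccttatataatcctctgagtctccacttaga
Ifit3b, chr19:34607757-34607956, plus strand: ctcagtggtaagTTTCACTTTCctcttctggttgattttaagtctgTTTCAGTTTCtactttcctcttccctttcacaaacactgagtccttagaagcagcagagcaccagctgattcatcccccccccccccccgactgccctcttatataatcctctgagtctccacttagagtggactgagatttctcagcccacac

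The third set shows the 2 genes without a promoter peak, neither of which has the word in the printed stretch. The RefSeq start of Ifitm1 differs from the annotated 5′ end, chr7:140967221, used elsewhere here. Its stretch therefore lies downstream of that 5′ end, outside the window searched for the word. That window held no word in either gene.
Ifitm1, chr7:140967876-140968027, plus strand: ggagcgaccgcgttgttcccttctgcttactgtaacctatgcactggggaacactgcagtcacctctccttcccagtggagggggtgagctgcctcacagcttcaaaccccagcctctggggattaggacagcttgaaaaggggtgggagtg
Ifi44, chr3:151749961-151750110, minus strand: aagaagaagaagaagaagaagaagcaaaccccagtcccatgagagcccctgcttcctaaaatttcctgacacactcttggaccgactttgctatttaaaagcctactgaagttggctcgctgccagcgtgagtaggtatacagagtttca

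A promoter peak was present for 40 of the 42 genes in both replicates (95.2%, 95% Wilson interval 84.2 to 98.7), against 39.4% of all protein-coding genes. The same 40 genes were found in each replicate and in both joined lists, and Ifitm1 and Ifi44 were without a promoter peak in all 4. Most of the 42 promoters are poor in CpG dinucleotides, a class in which marking was less common across the genome. Among CpG-poor promoters 36 of 38 members were marked (94.7%), against 21.5% of all genes of that class. The remaining 4 members, Trim25, Samhd1, Adar and Znfx1, are CpG-rich at the 5′ end, and all 4 were marked at some annotated start. The share among all CpG-rich genes was 61.7%. CpG class was scored at the 5′ end alone, so for Adar and the CpG-poor Rtp4 class and peak belong to different places. With the window drawn at the 5′ end alone, 38 of 42 members were marked, against 36.1% of all genes. The genes lost were Adar and Rtp4, whose peaks lie at internal annotated starts. The genes were chosen with earlier results of these data known and are not replicates of anything, so these shares are descriptions and no p-value was computed.

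The fold of a peak over control or background is the authors' own value, and its percentile is the share of peaks in the same list with an equal or lower fold. For each gene the promoter peak with the highest fold was used. The 40 marked genes had a median percentile of 82.58 in replicate 1, 83.32 in replicate 2 and 85.18 in the replicated list. The medians over all marked genes were 69.36, 70.58 and 73.88. The members were thus placed higher than the typical marked promoter, without being uniformly at the top. In the replicated list 14 of 40 were above the 90th percentile (35.0%, against 20.9% of all marked genes) and 3 of 40 were below the 50th (7.50%, against 17.5%). Restricted to CpG-poor promoters the medians were 84.24 for 36 members and 76.29 for all 2629 marked genes of that class.

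**Figure D1:**
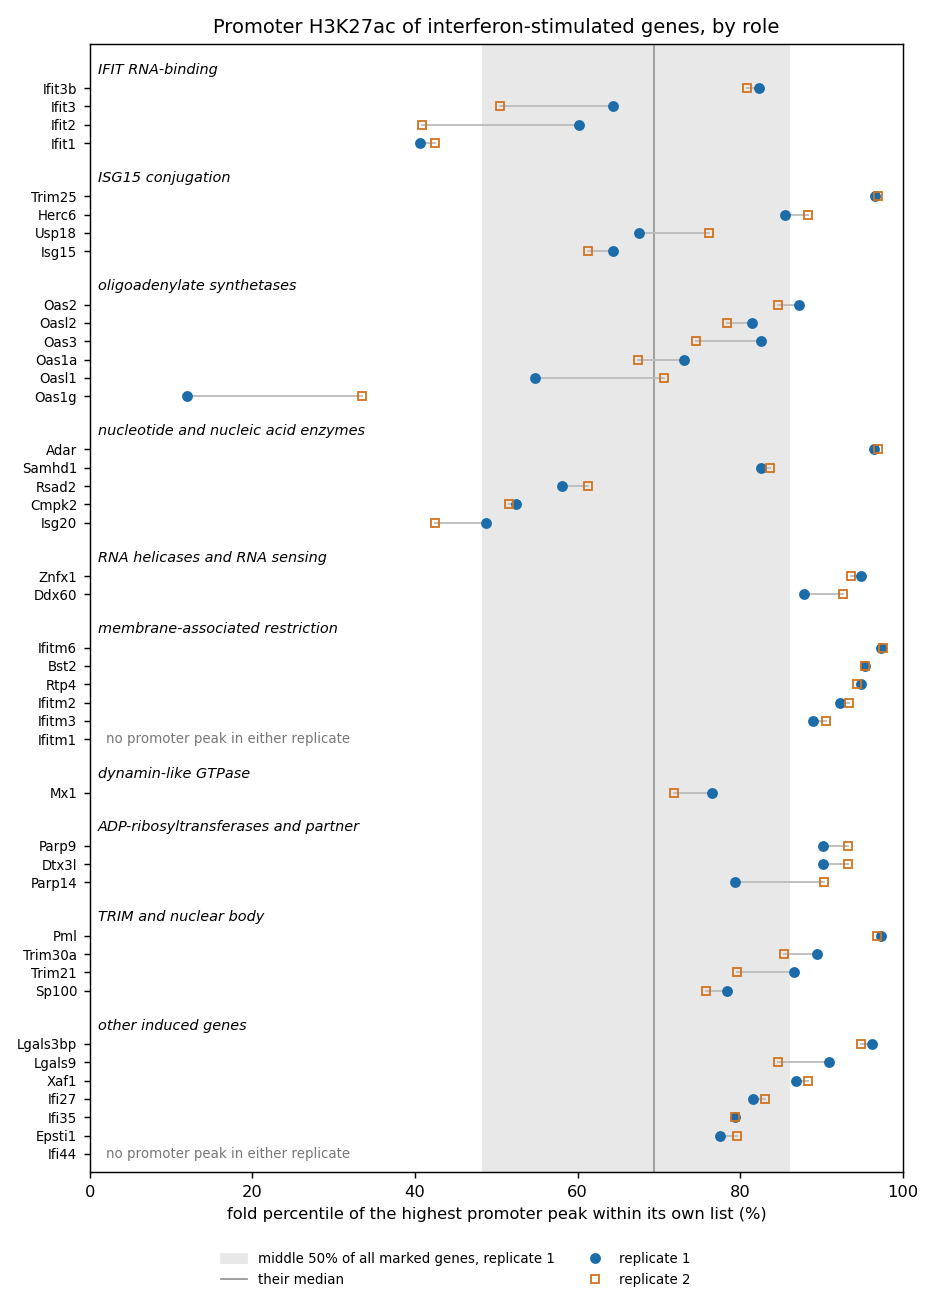
Fold percentile (%, horizontal axis) of the highest promoter peak of each member in replicate 1 (filled circles) and replicate 2 (open squares), grouped by role; the grey band and line give the middle 50% and the median of all marked genes in replicate 1. Most members lie right of the line at 69.36, while Ifit1, Ifit2, Ifit3, Isg15, Oas1g, Rsad2, Cmpk2 and Isg20 lie to the left in both replicates, and Ifitm1 and Ifi44 have no promoter peak.

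The peaks were also wide. The median width in the replicated list was 2198 bp for the 40 genes and 1247 bp for all marked genes, and 25 of 40 peaks exceeded 2 kb (62.5%, against 26.4%). In the replicates the medians were 2041 and 1992 bp, against 1012 and 1116 bp. The widest belonged to Trim25 at 6565 bp, Znfx1 at 5264 bp, Ifitm2 at 4580 bp and Samhd1 at 4323 bp. Width and fold rank went together for most members, with exceptions on both sides. Isg20, which encodes an RNA exonuclease, had a 2507 bp peak at only the 44.9th percentile, whereas Ifit3b had a 1193 bp peak at the 84.4th.

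**Figure D2:**
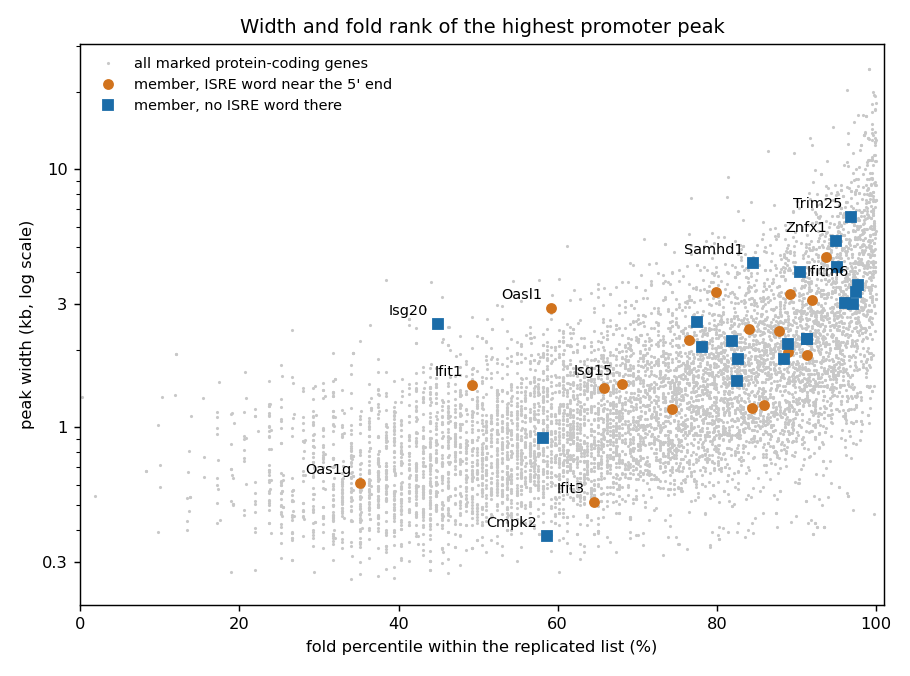
Width (kb, log scale) against fold percentile (%) of the highest promoter peak in the replicated list, for all marked protein-coding genes (grey) and for members with (circles) and without (squares) an ISRE word near the 5′ end. Members sit towards the right and upper part of the cloud, with medians of 85.18% and 2198 bp, and both kinds of member are found across the range.

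The replicates ranked the members alike. The percentiles of the 40 genes had a Spearman correlation of 0.952 between replicates, given as a description across genes that share the same 2 libraries. The median difference was 2.72 percentile points, 20 genes ranked higher in each replicate, and 5 differed by over 10 points, the most being Oas1g at 21.5 points. The highest peaks of both replicates overlapped for 39 of 40 genes, and for Samhd1, a dNTP hydrolase, the answer turned on a tie. In replicate 2 the peaks chr2:157128863-157130713 and chr2:157132036-157135144 had the same fold of 16.26, and the latter overlapped the highest peak of replicate 1, chr2:157130840-157135115.

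The peaks spread over both sides of the start. Measured from the annotated start nearest the summit, the replicated-list peak covered the start itself in 38 of 40 genes. Its median extent was 1274 bp downstream and 902.5 bp upstream. Summits lay downstream in 28 genes and upstream in 12, at a median of 167 bp downstream, and 14 were within 200 bp of the start. Choosing the start nearest the summit favours a peak that covers it. These shape values were taken for members alone, so they do not set members apart from other marked genes. For 3 of the 38 members marked at the 5′ end (7.89%), the 5′ end lay between 2 peaks in both replicates, a rule set after the peaks were seen. The share among all genes marked there was 19.0%. The 3 genes were Ifit3b, with gaps of 208 and 129 bp, Samhd1, with 203 and 172 bp, and Znfx1, with 579 and 602 bp.

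**Figure D3:**
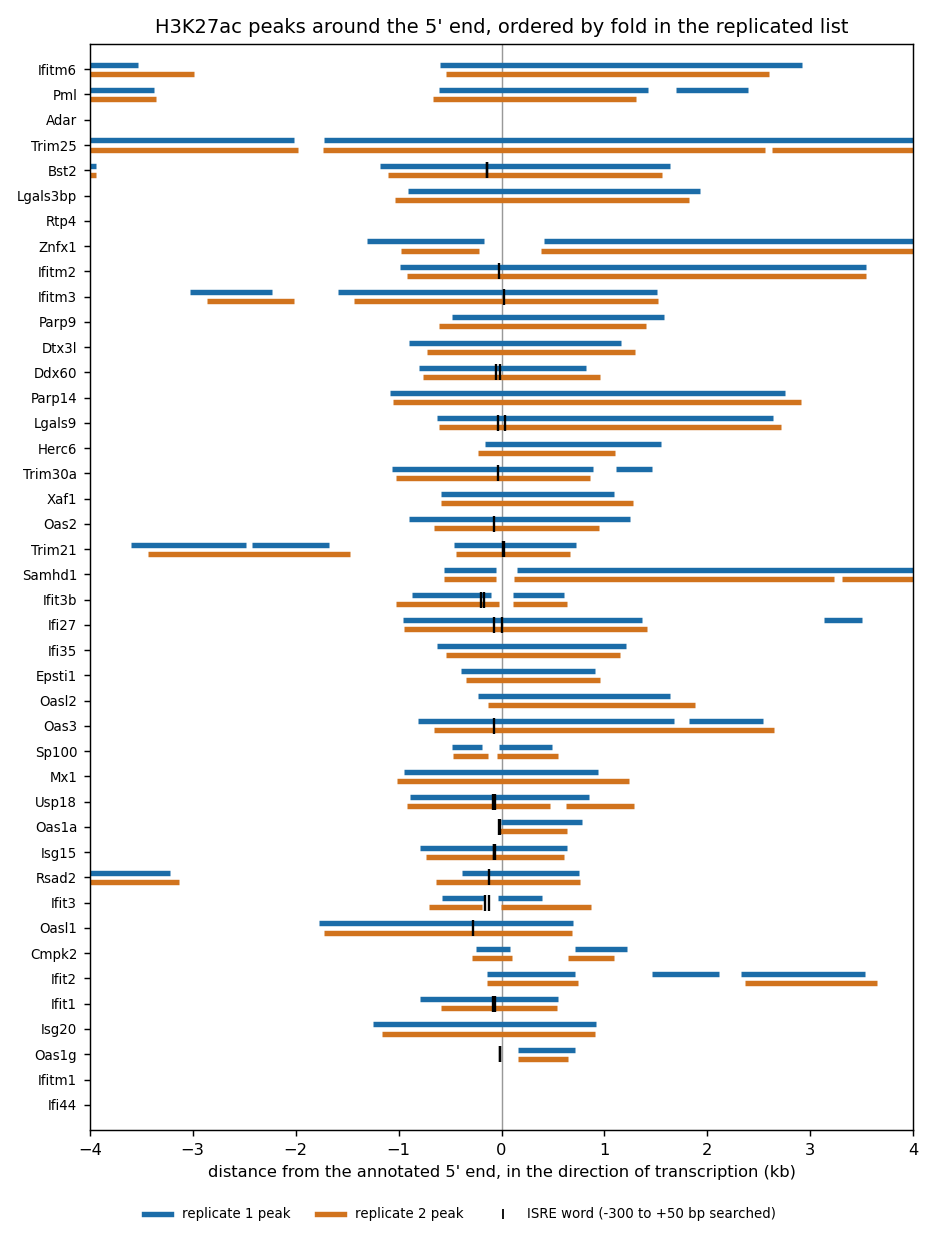
Peaks of replicate 1 and replicate 2 within 4 kb of each member's annotated 5′ end (kb, positive in the direction of transcription), with ISRE words as black ticks, ordered by fold in the replicated list. Peaks span the 5′ end in most genes; Adar, Rtp4, Ifitm1 and Ifi44 have none there, and the ticks of Ifit3 fall in the gap between its peaks.

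The IFIT family encodes cytoplasmic proteins that bind RNA with foreign 5′ ends, and it had the lowest median percentile, 61.4, of the roles with more than 1 gene. All 4 genes were marked, with peaks of 512 to 1465 bp. Ifit1, with its 5′ end at chr19:34640871, had folds of 5.851 and 6.033 (mean 5.942 ± 0.129, SD, n = 2), at the 40.6th and 42.4th percentile. Ifit2 had folds of 8.432 and 5.96, at the 60.2nd and 40.9th percentile. These are modest peaks, and those of Ifit2 differed in rank between the replicates by more than those of Ifit1.

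Ifit3 and Ifit3b are paralogs with the same pair of ISRE words in the sequences printed above. Ifit3 had folds of 9.292 and 7.039, and Ifit3b had 15.14 and 14.75, so Ifit3b was higher in both replicates and the values did not overlap. In Ifit3 the words at chr19:34583373-34583416 lay between peaks in both replicates, namely between chr19:34582951-34583356 and chr19:34583498-34583922 in replicate 1. In Ifit3b the words lay inside a peak of both replicates. Much of the sequence around these starts occurs elsewhere in the genome, which limits what short reads can assign. Of the 1970 32-letter words within 1 kb of the Ifit3 start, 62.9% occurred elsewhere, and 1209 were shared with the window of Ifit3b, where the share was 63.6%. How reads that match both places were treated is not given in the sources used here, so the peaks and gaps of this pair are uncertain.

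The 4 genes lie within 90177 bp on chromosome 19, with 10 peaks in replicate 1 and 11 in replicate 2. Apart from the promoter peaks, a peak within an intron of Ifit2, chr19:34553016-34554222, began 2322 bp past its 5′ end and had folds of 9.981 and 7.497. That exceeds the promoter fold of Ifit2 in each replicate, and the peak holds 2 ISRE words. The peak over the Ifit1 start also touched the window of the neighbouring gene Ifit1bl2. The highest promoter peaks of the 4 genes were separate intervals in both replicates.

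**Figure D4:**
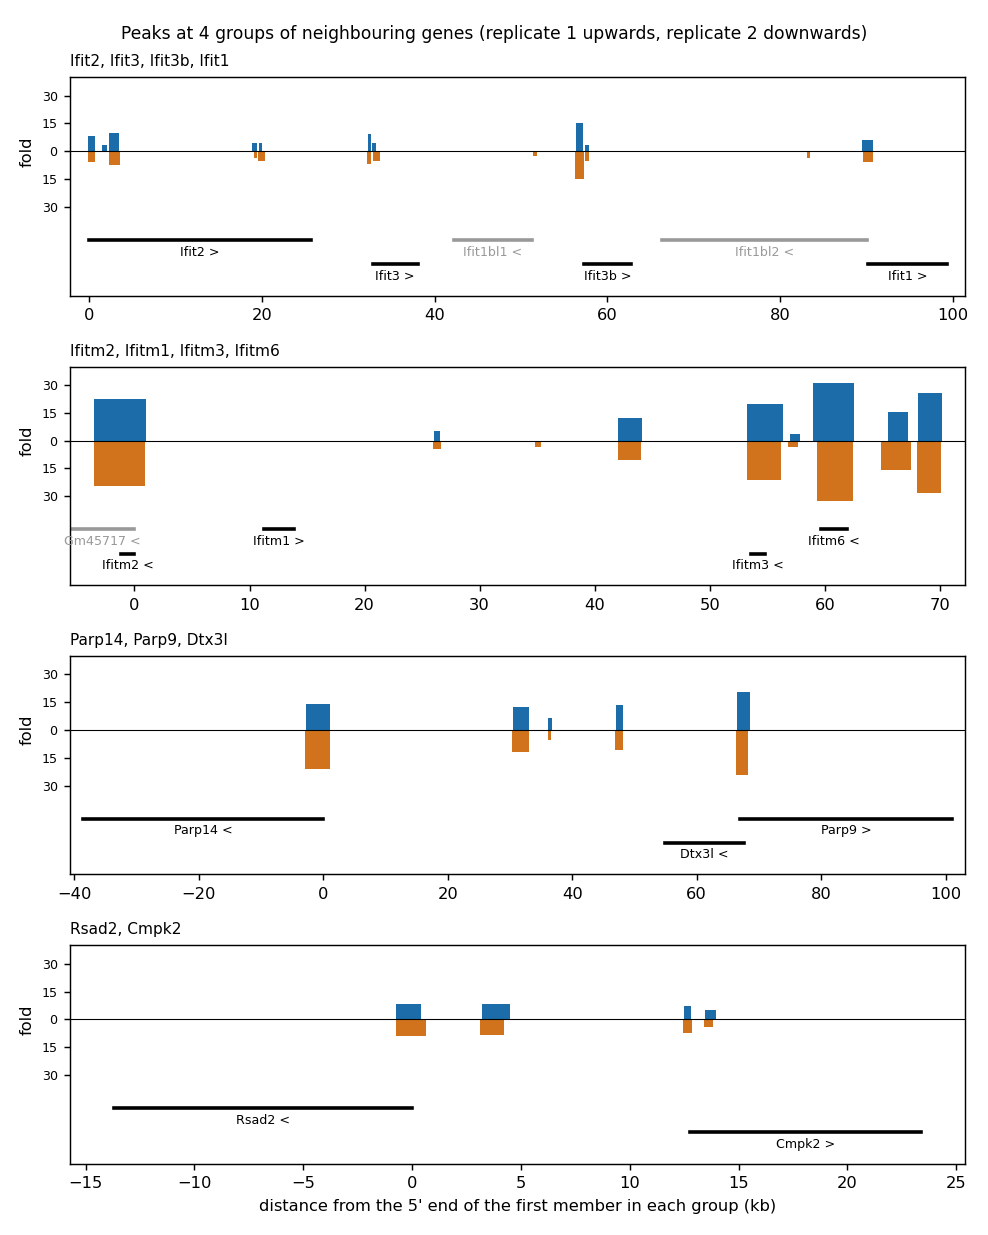
Peaks of replicate 1 (upwards) and replicate 2 (downwards), with bar height giving the authors' fold, at 4 groups of neighbouring members; the horizontal axis is the distance in kb from the 5′ end of the first member, black lines are members and grey lines other genes, with > and < for their direction. Folds stay at 15.14 or below in the Ifit group and reach 32.51 in the Ifitm group, where Ifitm1 has no peak.

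Isg15 is a ubiquitin-like protein, which E3 ligases such as mouse Herc6 attach to targets and which the protease Usp18 removes. Isg15, with its 5′ end at chr4:156200818, had folds of 9.292 and 8.882, at the 64.4th and 61.3rd percentile, below the median of marked genes in both replicates. Usp18 had folds of 10.15 and 12.91 and Herc6 had 17.04 and 19.44. The order Isg15, Usp18, Herc6 was the same in both replicates without overlap of values. The highest was Trim25, a ligase of the RIG-I pathway and also of Isg15, at 29.25 and 30.67 (mean 29.96 ± 1, SD, n = 2). Its replicated-list peak was the widest of all members, at 6565 bp. A second peak, chr11:88993268-88997363, stood 2013 bp before its 5′ end with folds of 24.54 and 28.89.

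The oligoadenylate synthetases make 2′-5′ oligoadenylates that switch on RNase L, and the Oasl proteins are relatives. All 6 were marked, over a wide range, from the 35.2nd to the 87.8th percentile. Oas2 had the highest folds, 18.07 and 16.76. Oas1g had the lowest folds of all 40 marked genes, 3.786 and 5.195 (mean 4.49 ± 0.997, SD, n = 2). Its neighbour Oas1a, which carries the same ISRE block, had 11.53 and 10.22, higher than Oas1g in both replicates.

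The ISRE words of Oas1g, at chr5:120887616-120887631, were outside the peaks of both replicates. Those of Oas1a were outside the peak of replicate 1, and in replicate 2 the word at chr5:120907530-120907539 was inside the peak while the word at chr5:120907536-120907545 crossed its edge. Of the 32-letter words around these starts, 28.0% for Oas1a and 27.7% for Oas1g occurred elsewhere, and 421 were shared between the 2 genes, so their folds carry the same uncertainty as those of Ifit3 and Ifit3b. Of the others, Oasl2 had folds of 14.8 and 13.74 and Oas3 had 15.31 and 12.29. Oasl1 had 7.668 and 11.06, a difference of over 10 percentile points between the replicates.

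Enzymes of nucleotides and nucleic acids had the second lowest median percentile of the roles with more than 1 gene, 65.8, and the members differed widely. Rsad2 encodes viperin, which makes a chain-terminating nucleotide, and Cmpk2 is a nucleotide kinase whose gene lies next to it on chromosome 12. Rsad2 had folds of 8.088 and 8.882. Cmpk2 had 7.227 and 7.206 in peaks of 327 and 386 bp, and its 380 bp in the replicated list made it the narrowest of all members. Between their starts, 12752 bp apart, an intergenic peak at chr12:26459673-26460943 had folds of 8.444 and 8.609. The intergenic peak held 3 ISRE words, and its folds were close to those of the Rsad2 promoter.

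Isg20 had folds of 6.883 and 6.033, and only Oas1g was lower in the replicated list. Samhd1 had 15.31 and 16.26. Adar, which edits double-stranded RNA, had 29.08 and 30.84. The Adar peak lay at an annotated start 15726 bp inside the gene, and no peak lay within 1 kb of the annotated 5′ end at chr3:89715022. Adar has an interferon-inducible promoter, but which annotated start belongs to it was not examined. The distance between a promoter peak and the 5′ end thus depends, for Adar, on which annotated start is taken.

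The RNA helicases Ddx60 and Znfx1 both ranked above the 90th percentile of the replicated list. Ddx60 had folds of 18.58 and 23.63, and Znfx1 had 26.16 and 24.8. Mx1, of the dynamin-like GTPase family, had 12.73 and 11.4, near the 77.5th percentile of the replicated list.

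Genes that act at membranes had the highest median percentile, 95.1, with 5 of 6 marked. The IFITM proteins hinder the fusion of viruses with cell membranes. Ifitm6, with its 5′ end at chr7:141017924, had folds of 31.15 and 32.51 (mean 31.83 ± 0.965, SD, n = 2), the highest of all members in replicate 2 and level with Pml in replicate 1. Ifitm2 had 22.54 and 24.47, and Ifitm3 had 19.52 and 21.28. The order of the 3 genes was the same in each replicate. The peak over Ifitm2 also touched the window of Gm45717, a gene annotated over the same region.

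Ifitm1, with its 5′ end at chr7:140967221, lies between Ifitm2 and Ifitm3 in the same 61937 bp and had no promoter peak. Its nearest peak ended 10244 bp before the 5′ end in replicate 1 and 10316 bp before it in replicate 2. A peak 14765 bp past the 5′ end, chr7:140981986-140982504, had folds of 4.99 and 4.692, low in both lists. A region without a peak was under the authors' threshold and need not lack the mark.

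Bst2 encodes tetherin, which holds budding virus at the cell surface. It had folds of 26.95 and 27.51 (mean 27.23 ± 0.397, SD, n = 2), and a peak 8107 bp past its 5′ end, chr8:71527503-71529349, had 25.51 and 24.43. Rtp4, a chaperone for membrane receptors, had 26.27 and 25.95, at an annotated start 89634 bp inside the gene. Its annotated 5′ end, chr16:23520291, had no peak within 1 kb.

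Parp9 and Dtx3l form a complex and are transcribed from a shared promoter region in opposite directions, and Parp14 lies beside them on chromosome 16. A single peak, chr16:35937861-35940058, covered both starts, so Parp9 and Dtx3l have the same folds, 20.58 and 24.34, from 1 measurement. The counts, medians and correlation over members nevertheless enter both genes. Parp14 had 13.79 and 21.12, which placed it over 10 percentile points higher in replicate 2. Across the 3 genes 5 peaks were found in each replicate. Of the 40 marked genes, 4 shared a promoter peak with another gene in each replicate (10.0%, against 26.0% of all marked genes), namely Ifit1, Ifitm2, Parp9 and Dtx3l.

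Among TRIM and nuclear body genes, Pml, which organises nuclear bodies, had folds of 31.15 and 30.5. That peak lies at an annotated start inside the gene, that of a transcript annotated as retained intron. Its summit in the replicated list lay 1145 bp downstream of that start. The peak at the 5′ end, chr9:58249786, had 23.57 and 23.46. Trim30a had 19.96 and 17.38, and Trim21, a cytosolic antibody receptor, had 17.72 and 14.24. Sp100 had 13.42 and 12.75, at an annotated start 53454 bp inside the gene, and its peak over the 5′ end had 9.988 and 8.885. Around that 5′ end 75.7% of the 32-letter words occurred elsewhere in the genome, the highest share of any member, and the internal start was not examined for such words. In 5 members that share was over 25%, a limit set after the values were seen, and the median was 5.45%.

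Of the remaining 7 genes 6 were marked. Lgals3bp, a secreted galectin-binding protein, had folds of 28.56 and 26.65, and the galectin Lgals9 had 21.17 and 16.76. Xaf1, Ifi27, Ifi35 and Epsti1 lay between the 82.5th and 88.5th percentile of the replicated list. Ifi44 had no promoter peak. Its nearest peak was 197542 bp before the 5′ end at chr3:151749960 in replicate 1 and 197579 bp before it in replicate 2, and it had no distal peak within 25 kb. Ifi44 was the only member without any peak within that distance in both replicates.

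The 19 genes with an ISRE word held 32 words in all, and 12 genes had more than 1. The words lay at a median of 66.5 bp before the 5′ end, and 25 of 32 fell within the 200 bp before it. Of the 32 words, 26 lay inside a peak of both replicates. The other 6 belong to Ifit3, Oas1a and Oas1g, genes with repeated sequence as described above. The counts of 25 and 26 were not made for other genes. The search covered sequence next to the 5′ end, which the peaks of most members span. The count of 26 therefore shows no tie between word and peak. All 19 genes with the word were marked, and all 19 have CpG-poor promoters. Of all 935 genes with the word, 40.3% were marked, against 39.3% of the 21003 without it. Within the CpG-poor class 26.9% of the genes with the word were marked, against 21.5% of the class, and within the CpG-rich class 68.3%, against 61.7%. In the replicated list, marked members with the word had a median percentile of 84.1 and those without it 89. Members with the word thus did not rank higher in this comparison. Over all marked genes the order was the other way, with medians of 76.5 with the word and 73.9 without it. The word was searched at the 5′ end alone. The highest peaks of Adar, Rtp4, Pml and Sp100, all counted as without the word, lay at internal starts that this search did not cover. The word of the gamma-activated sequence, TTCNNNGAA, searched on both strands, stood in 8 of 42 members (19.0%), against 9.81% of all genes. A match of letters is a description of sequence and not a site of binding.

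Distal peaks were replicate 1 peaks that kept 1 kb or more from every protein-coding start and were overlapped in replicate 2. At least 1 lay within 25 kb of the 5′ end in 21 of 42 members, against 26.4% of all genes. The mean was 1.02 ± 1.37 per member (SD over 42 genes), against 0.495 over all genes and 0.913 over all marked genes. Members thus stood close to other marked genes in this count. Pml had the most, with 5, followed by Ifitm3 and Ifitm6, which share the same 4, and by Ifit2, Trim25, Rsad2, Ddx60 and Trim21 with 3 each. Distances were taken from the 5′ end, so for Adar and Rtp4 the counts do not describe the marked internal start. The distal peak of Rtp4 lay 13750 bp before its 5′ end, whereas its marked start lay 89634 bp inside the gene. The counts use peaks more than once where members are neighbours. They also depend on how peaks were split in replicate 1. The Trim21 peaks chr7:102567164-102567915 and chr7:102567967-102569089 were overlapped by a single replicate 2 peak. In the replicated list the Pml peaks chr9:58271465-58272416 and chr9:58273531-58276675 had the same fold, 31.63, and chr11:89003544-89004158 lay within the Trim25 promoter peak. The distal peak of Oas3 was overlapped by its promoter peak in replicate 2.

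The distal peaks near members were 34 distinct replicate 1 peaks, of which 26 were intergenic and 8 lay in introns. An ISRE word was found in 10 of 34 (29.4%), against 20.0% of all 15069 distal peaks. The peaks near members were narrower, with a median of 873.5 bp against 1095 bp, and so had fewer letters to match. For 21 of 34 the nearest protein-coding start was that of a member. Among the highest was chr7:141024118-141026138 near Ifitm6, with folds of 25.82 and 28.47. The highest in replicate 1 was chr9:58273531-58276675, with 31.32 and 27.32, which lies 23745 bp before Pml and whose nearest start is that of Stoml1.

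**Figure D5:**
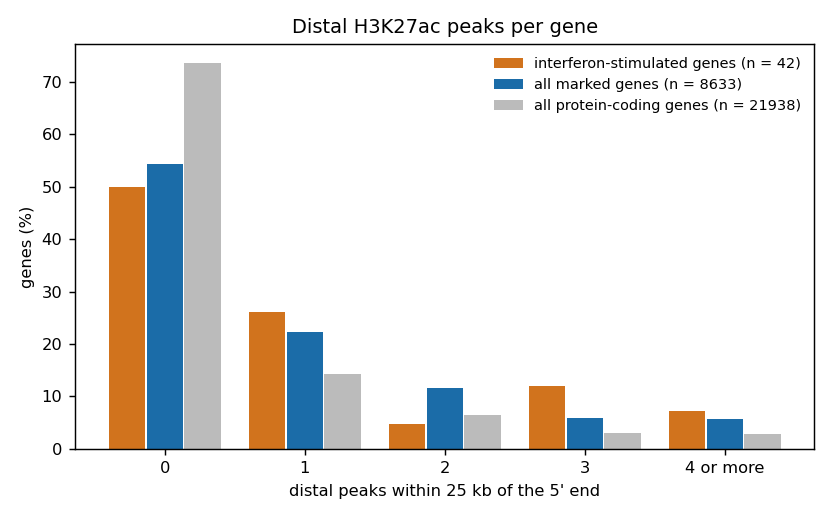
Share of genes (%, vertical axis) by the number of distal peaks within 25 kb of the 5′ end (horizontal axis), for the 42 members, all marked genes and all protein-coding genes. No distal peak was counted for 21 of 42 members, 54.3% of marked genes and 73.6% of all genes.

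The genes that carry the interferon signal were marked at rest, apart from the interferons and an inhibitor. Of 36 other pathway genes, a list kept apart from the 42, 31 were marked (86.1%, against 39.4% of all genes), at a median percentile of 84.1 in the replicated list, against 73.88 for all marked genes. All 4 receptor genes were marked, with Ifngr2 the highest at folds of 26.5 and 27.99. All 3 receptor kinases were marked, but at lower rank, with Tyk2 the highest at 9.12 and 10.39 and Jak1 at 6.894 and 6.016. All 9 transcription factors were marked, led by Irf5 at 32.18 and 33.02, the highest of the 31 in the replicated list. Irf9, which takes part in binding the ISRE, had 25.64 and 30, and Irf7, which drives interferon genes, had 23.57 and 21.45.

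All 9 annotated genes listed for RNA and DNA sensing, adaptors included, were marked, led by Tlr7 at 27.36 and 25.98. The name Mb21d1, also listed for sensing, matched no annotated gene and was not examined. Both induction kinases were marked, led by Ikbke at 25.64 and 24.3. Of 5 inhibitors 4 were marked, led by the phosphatase Ptpn6 at 31.5 and 27.53, and Socs3 had no promoter peak in either replicate. None of the 4 type I interferon genes examined, Ifnb1, Ifna1, Ifna2 and Ifna4, had a promoter peak in either replicate. Only 39.4% of all protein-coding genes were marked, so the lack of a promoter peak is common. Within 25 kb of their 5′ ends lay 2, 1, 3 and 1 distal peaks, in that order. Repeated sequence was not examined at these genes. The marked effector genes and the unmarked interferon genes were thus seen in the same libraries.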

How the data were processed

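H3K27ac was profiled in 2 biological replicates of unstimulated macrophages, per the labels. As the deposited text files record, each replicate list came from that replicate's own alignments and the replicated and pooled lists from both together, on mm10. The authors deposited a fold per peak, a linear ratio to control or background. The q-value deposited by the authors is on a −log10 scale, and the summit is a deposited distance in bp from the peak's start. The aligner, the peak caller, their settings and the read depth are not given in the sources used here. Folds were used to rank or describe peaks within a list, and joined lists are the authors' values with no SD or n.

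Positions are 1-based on GRCm38 with GENCODE release M21 gene models, which give 21938 protein-coding genes outside the mitochondrial genome and 93513 starts. CpG-rich means GC of at least 50% and observed/expected CpG of at least 0.6 within 500 bp of the 5′ end. Peaks overlapped with at least 1 bp. Members within 100 kb of each other were grouped. Python 3.11.15 and numpy 2.4.6 were used, and the code was tested on simulated data. The members, the lists and the rules were chosen with earlier results of these data known. The rule asked for values of the 8 highest, 4 widest and 4 lowest marked members and of those unmarked. It also asked for those sharing a peak and the 4 with the most distal peaks. Folds of most other members were printed as well, by role, and Xaf1, Ifi27, Ifi35 and Epsti1 were given as a percentile range. Values of 1 pathway gene are not reported here. Of 37 pathway names, 1 matched no annotated gene. Alternatives changed the window, the starts, the q threshold, the list, the overlap, the distance, the motif and the replicate.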

Additional observations from a re-analysis of the deposited data

How the results depend on the processing

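The share of marked members, 95.24%, was the same with windows of 500 bp and 2.5 kb, a −log10 q of at least 5, an overlap of 50% of both peaks, each joined list, each replicate alone and, as alternatives added after seeing the data, the starts of protein-coding transcripts alone. It was 90.48% with the 5′ end alone and 94.59% over the 37 members with no other gene's start within 1 kb. The median width was 2198 bp and 1992 to 2041 bp with a replicate left out. The median percentile was 85.18, 82.58 to 83.32 with a replicate left out, 81.93 ranked among promoter peaks alone and 84.45 at the 5′ end alone, the last added after seeing the data; the values for all marked genes under these were 67.76 and 72.08. The mean number of distal peaks, 1.024, was 1.095 to 1.119 with a replicate left out, 0.3571 within 10 kb, 3.143 within 100 kb, 0.8095 over 2.5 kb from every start, 0.7857 with an overlap of 50%, 1.333 in the replicated list and 0.9286 at a −log10 q of at least 5, each above the value for all genes under the same setting. The share with an ISRE word, 45.24%, was 71.43% within 1 kb either side and 64.29% at any start, against 22.86% and 11.49% of all genes, and 42.86% of members in the RefSeq table. A wider search has more letters to match; the cause of the other shifts was not tested. No paired analysis was possible because there is 1 group. Read depth was not given, so peaks under the authors' threshold and absent acetylation cannot be told apart.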
